A study of Mus musculus with 9 samples.

Results

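The respiratory chain genes of both genomes were followed in mouse liver with and without miR-122, a microRNA that is abundant in hepatocytes. The 97 members, of 30519 genes in the table, were chosen by symbol: 84 nuclear genes whose names mark subunits of complexes I to V, and all 13 protein-coding genes of the mitochondrial genome, with 4 pseudogene rows left out. The libraries were made from polyA RNA of 9 mice aged 6 weeks. The KO group held 4 mice labelled as miR-122 knockouts, 1 female (replicate 1) and 3 males (replicates 2 to 4), and the WT group held 5 floxed littermates, 3 females (replicates 1 to 3) and 2 males (replicates 4 and 5). Neither the Cre driver behind the knockout nor the strain is named in the labels. Each liver had been frozen and ground to powder, and the RNA came from the portion that had not been exposed to ultraviolet light.

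The respiratory chain carries electrons from NADH and succinate to oxygen and stores the energy as a proton gradient across the inner mitochondrial membrane, which the ATP synthase then spends to make ATP. Complex I (NADH dehydrogenase), complex III (cytochrome bc1), complex IV (cytochrome c oxidase) and complex V (ATP synthase) are built from subunits of both genomes, while complex II (succinate dehydrogenase) is wholly nuclear. Hepatocytes are rich in mitochondria, and they rely on the chain for gluconeogenesis, urea synthesis and fatty acid oxidation.

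By the symbols, the nuclear members were 37 genes of complex I, 4 of complex II, 8 of complex III, 18 of complex IV and 17 of complex V, and the mitochondrial members were 7, 0, 1, 3 and 2 genes of the same complexes. The symbols and current biochemistry part at a few genes. Ndufa4 is named as a complex I subunit but is now placed in complex IV, Cox7a2l is a factor of respiratory supercomplexes, and Atp5s and Atp5sl are not subunits of the ATP synthase. They were kept where the rule put them.

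Members of both genomes lay next to sequences that can be shown where they bear on how the values are read. The mitochondrial genome is compact, and neighbouring genes share bases, so a fragment from such a stretch can be given to either gene. mt-Atp8 and mt-Atp6 share 43 bases at chrM:7927-7969 (GRCm38, plus strand, GENCODE M21), printed with no capitals because no motif was marked.
mt-Atp8 and mt-Atp6, shared stretch: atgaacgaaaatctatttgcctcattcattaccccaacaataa
mt-Nd4l and mt-Nd4 share 7 bases, mt-Atp6 and mt-Co3 share 1, and mt-Nd5 and mt-Nd6 overlap by 14 bases on opposite strands.

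Many nuclear respiratory chain genes are known targets of the transcription factors NRF1 and GABPA. Promoters are therefore shown for complex II, in which all 4 members fell, except Sdhc, which had none in the promoter set. RefSeq (GRCm38.p6) gave promoters, from 250 bases before to 50 bases after the start site, for 66 of the 84 nuclear members, 71 promoters in all. In the promoters of Sdha, at chr13:74350191-74350490 (minus strand), and Sdhd, at chr9:50603800-50604099 (minus strand), capitals mark matches, on either strand, to the NRF1 motif (10 letters) and to the GABPA motif CCGGAAG.
Sdha promoter: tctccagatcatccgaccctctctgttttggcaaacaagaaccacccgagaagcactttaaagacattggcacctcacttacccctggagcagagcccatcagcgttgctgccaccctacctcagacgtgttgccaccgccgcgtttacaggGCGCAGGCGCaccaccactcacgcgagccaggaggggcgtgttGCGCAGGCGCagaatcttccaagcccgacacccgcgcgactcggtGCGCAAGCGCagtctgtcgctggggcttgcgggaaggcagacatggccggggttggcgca
Sdhd promoter: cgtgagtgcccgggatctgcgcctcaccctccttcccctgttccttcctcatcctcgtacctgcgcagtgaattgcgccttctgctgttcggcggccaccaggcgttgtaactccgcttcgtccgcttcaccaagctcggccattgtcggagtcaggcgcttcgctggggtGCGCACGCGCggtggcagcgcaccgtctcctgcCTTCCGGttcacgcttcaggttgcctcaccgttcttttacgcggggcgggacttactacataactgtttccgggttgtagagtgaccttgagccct
Shorter windows show the same motifs in the ATP synthase genes Atp5c1 (NRF1, chr2:10080430-10080459, minus strand), Atp5k (NRF1, chr5:108434430-108434459, minus strand) and Atp5j (GABPA, chr16:84835019-84835048, minus strand), and in Sdhb (GABPA, chr4:140961266-140961295, plus strand).
Atp5c1 window: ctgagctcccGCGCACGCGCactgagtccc
Atp5k window: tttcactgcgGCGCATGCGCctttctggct
Atp5j window: agctgagggacCCGGAAGcacttaccctcc
Sdhb window: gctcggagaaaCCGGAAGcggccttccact
The NRF1 motif was present in 18 of the 71 member promoters (25.4%), against 4.60% of all 32851 promoters in the RefSeq table. The GABPA motif was present in 16 (22.5%), against 8.86% of all, and the TATA box letters TATAAA in 8 (11.3%), against 13.6% of all. The 2 factor motifs do not share letters, and a match describes the letters of this window and no more. The genes printed here were all picked from members called lower on the deposited scale. The NRF1 motif also stood in the promoters of Ndufs6 and Ndufa11, and the GABPA motif in that of Uqcr11. These had no call on the deposited scale and were higher with equal totals. Members with the NRF1 motif and members without it gave these counts: 7 of 17 tested genes with the motif were lower in KO (median log2 fold change -0.33), and 25 of 47 without it (median -0.39).

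All values are the authors' normalised abundances per library, 1 transcript a gene, on what is called here the deposited scale. They are not TPM: the library totals, in units of 1000, were 720, 759, 711 and 869 in KO and 873, 926, 1045, 1042 and 1167 in WT, so every KO total lay below every WT total. Each comparison is therefore also given with equal totals, each library scaled to the mean total of the 9. Depth behind the tested members, from the authors' deposited mean observation, ran from 13.5 reads per library for Cox7a1 to 561484 for mt-Co1, with a median of 1632 for nuclear members and a lowest value of 23551 for mitochondrial ones. Each library is labelled with a mouse of its own, so that p-values rest on the spread between animals.

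**Figure D1:**
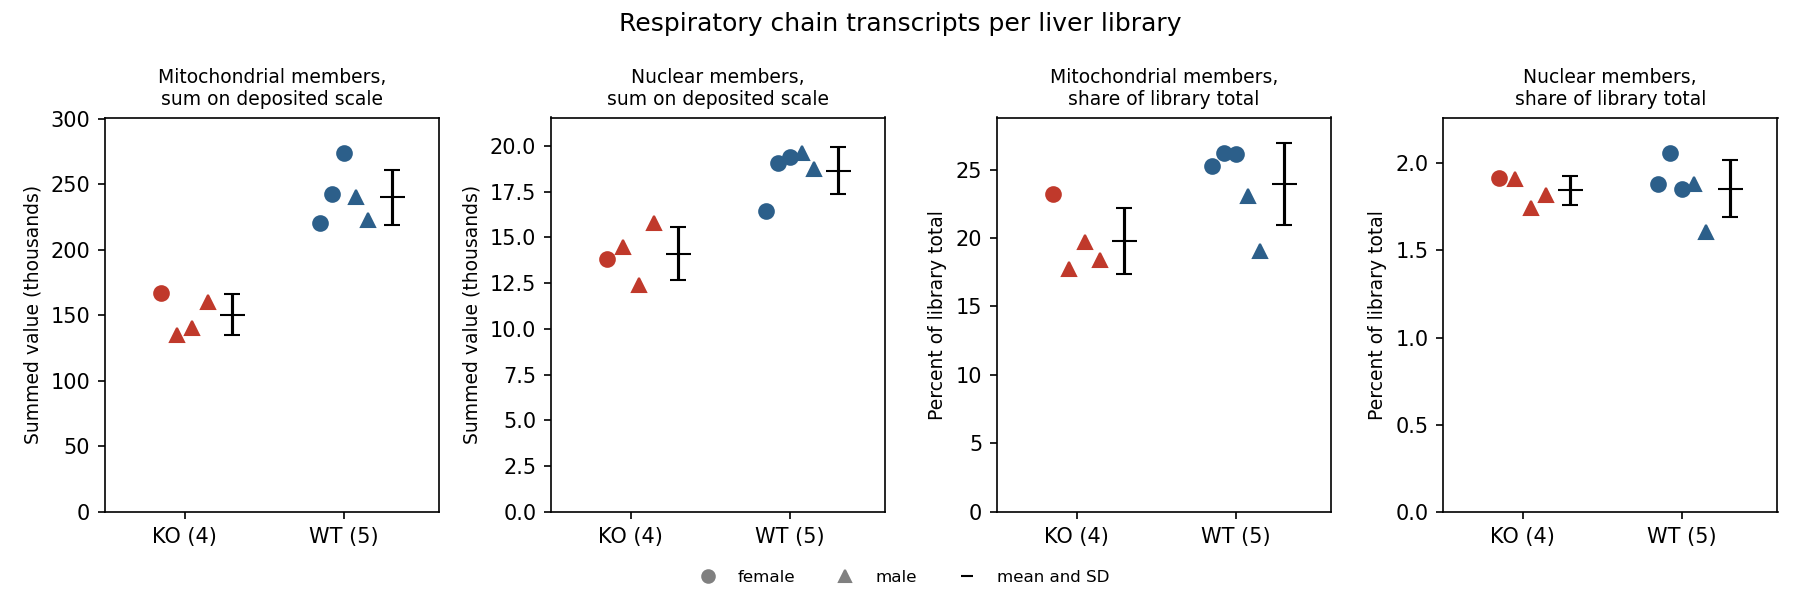
Summed values of the mitochondrial and nuclear members in each library (units of 1000, deposited scale, 2 left panels) and as percent of the library total (2 right panels). Each point is a liver, circles are females, triangles are males, and black bars give mean and SD; both sums lie lower in every KO library than in any WT library, while the shares overlap.

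The 13 mitochondrial transcripts summed, in units of 1000, to 167, 135, 140 and 159.8 in KO livers and to 221, 242, 273, 240.4 and 223 in WT livers. The sums did not overlap, and the mean was 150.5 ± 15.4 in KO against 239.9 ± 21.2 in WT (SD, n = 4 and 5). As a share of the library total they made up 23.2%, 17.8%, 19.7% and 18.4% in KO and 25.3%, 26.2%, 26.2%, 23.1% and 19.1% in WT. These shares overlapped, since WT replicates 4 and 5 lay below KO replicate 1, and WT replicate 5 also below KO replicate 3. The highest KO share and the 3 highest WT shares were those of the female livers.

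The nuclear members summed, in units of 1000, to 13.8, 14.5, 12.4 and 15.8 in KO and to 16.4, 19.1, 19.4, 19.6 and 18.8 in WT. Again the groups were apart on the deposited scale, at 14.1 ± 1.42 in KO against 18.6 ± 1.28 in WT. As a share of the total they were 1.85% ± 0.083 in KO and 1.86% ± 0.161 in WT, with overlapping ranges. The ratio of the mitochondrial to the nuclear sum was 10.7 ± 1.25 in KO and 12.9 ± 0.905 in WT, also overlapping. The plot of sums and shares by liver shows the same contrast between the scales. In bulk liver RNA, fewer cells of a type and less RNA per cell cannot be told apart.

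On the deposited scale, many respiratory chain transcripts of both genomes were lower in KO livers. Of 79 nuclear members above the abundance minimum (a mean of at least 1), 42 fell and 0 rose (limma, Benjamini-Hochberg adjusted p under 0.05 over 10950 transcripts), and 12 of the 13 mitochondrial members fell. The other 37 nuclear members and mt-Nd6 had no call, and 3 nuclear members had a positive log2 fold change. At an unadjusted p under 0.05 (limma) the nuclear counts were 50 lower and 1 higher, but all transcripts were not counted at that threshold. The authors' deposited table has 0 members higher at a q under 0.05. Among all tested transcripts 14.5% were lower and 21.4% higher by adjusted p. Their median log2 fold change was 0.027, against -0.39 for the nuclear and -0.60 for the mitochondrial members. The members are abundant, and among transcripts with a mean of at least 10 the share called lower was 24.5%, beside 42 of 74 nuclear members. Every KO library lay below every WT library for 35 nuclear and 12 mitochondrial members, beside 12.1% of all tested transcripts.

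With equal totals the median of all transcripts moved to 0.36, and the picture of single genes changed with it. Now 7 nuclear members were lower and 12 higher, beside 2.72% and 45.0% of all tested transcripts, and the nuclear median was 0.0074. Every KO library lay below every WT library for 5 nuclear and 0 mitochondrial members, and above for 8 and 0. The share of all transcripts with groups apart was not counted on this scale. Of the mitochondrial members, mt-Atp8 was the 1 still called lower, and their median was -0.20. That mitochondrial count was 0 when any of KO replicates 2 to 4 or WT replicates 1 to 4 was left out, and 5 without WT replicate 5. The nuclear count called lower was 3 without KO replicate 3, 4 without KO replicate 2, KO replicate 4 or any of WT replicates 2 to 4, and 12 without WT replicate 5. The nuclear count called higher ran from 4 (without KO replicate 2) to 18 over the same omissions. Over all tested transcripts, leaving out 1 library gave 223 to 422 lower and 3828 to 5274 higher. Set against the median of all transcripts, the nuclear members lay 0.41 lower on the deposited scale and 0.35 lower with equal totals, and the mitochondrial members 0.63 and 0.57 lower (members minus all: -0.41, -0.35, -0.63 and -0.57). The 7 nuclear members lower on both scales were Ndufs1, Ndufb9, Uqcrc2, Uqcrfs1, Atp5c1, Atp5f1 and Atp5j. The 12 higher with equal totals, none of them called on the deposited scale, were Ndufa4l2, Ndufa7, Ndufa11, Ndufa12, Ndufc1, Ndufs6, Ndufv3, Uqcr11, Cox7a2, Atp5d, Atp5j2 and Atp5s. The count higher depended on which total was made equal. With equal totals over transcripts that are not mitochondrial, 1 nuclear member was higher and 6 lower, and the nuclear median was -0.070. Of 10950 tested transcripts 3679 were then higher and 306 lower.

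**Figure D2:**
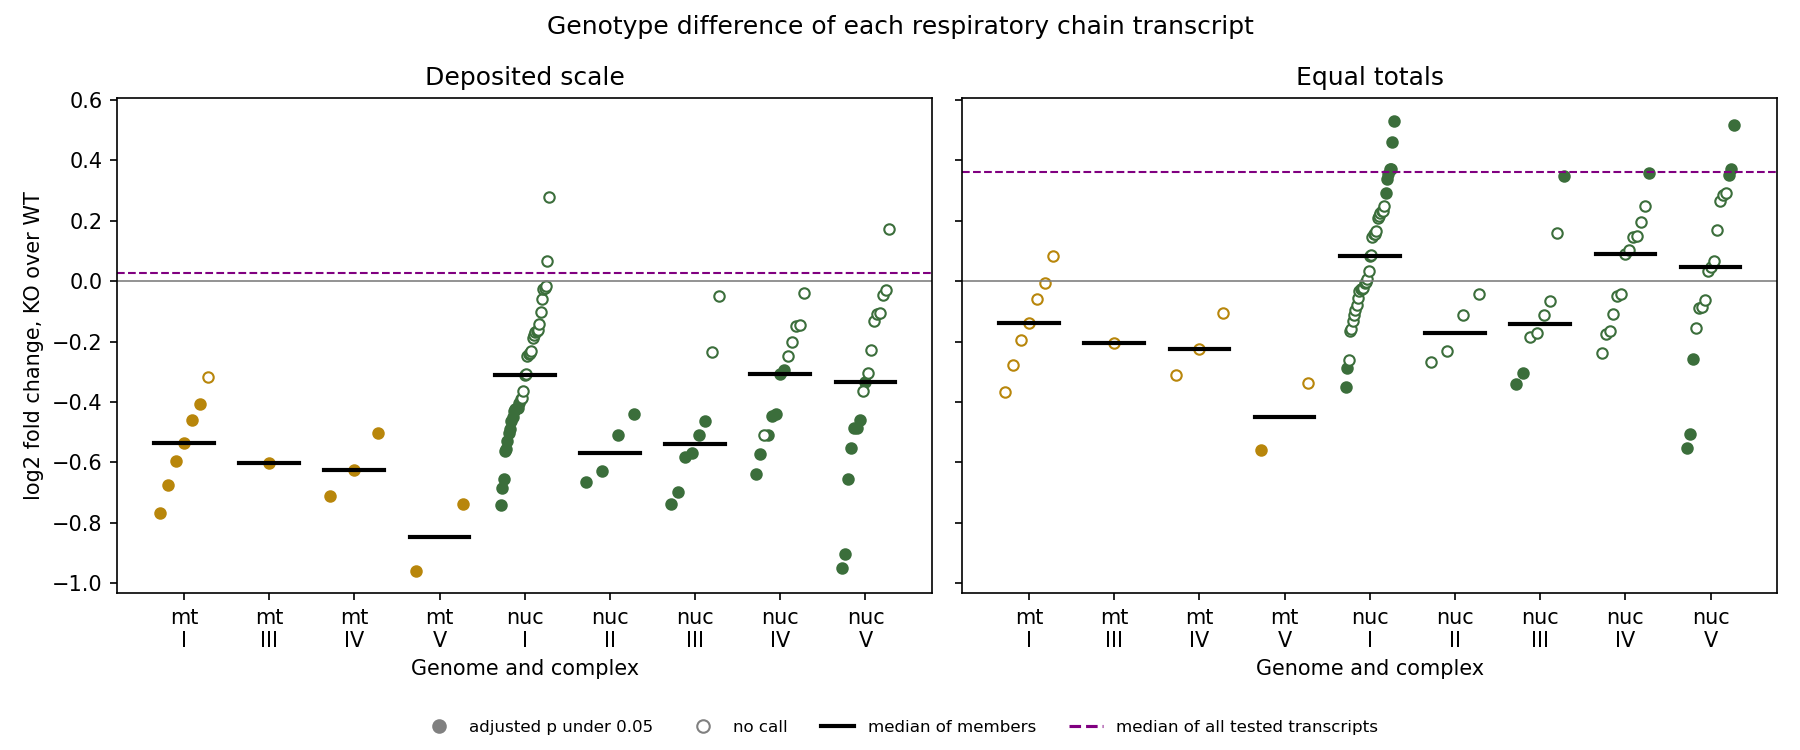
Log2 fold change, KO over WT, of each tested member by genome (mt, mitochondrial; nuc, nuclear) and complex, on the deposited scale (left) and with equal totals (right). Filled points pass an adjusted p of 0.05, black bars are medians of members, and the dashed line is the median of all tested transcripts (0.027 left, 0.36 right); the member medians lie below it in every class on both scales.

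The authors' own test gave a similar count for the nuclear genome and a lower one for the mitochondrial genome. Of the members tested, the authors' deposited table has 45 of the 79 nuclear ones lower in KO at a q under 0.05, against 11.6% of all transcripts with a q, and all 42 called by limma on the deposited scale were among them. Of 12 mitochondrial members with a q in the authors' deposited table, 3 were lower, namely mt-Nd3, mt-Nd4l and mt-Atp8, and mt-Co1 had no q. The annotated transcripts of mt-Nd3, mt-Nd4l and mt-Atp8 are the shortest of the mitochondrial members, at 348, 297 and 204 bases.

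**Figure D3:**
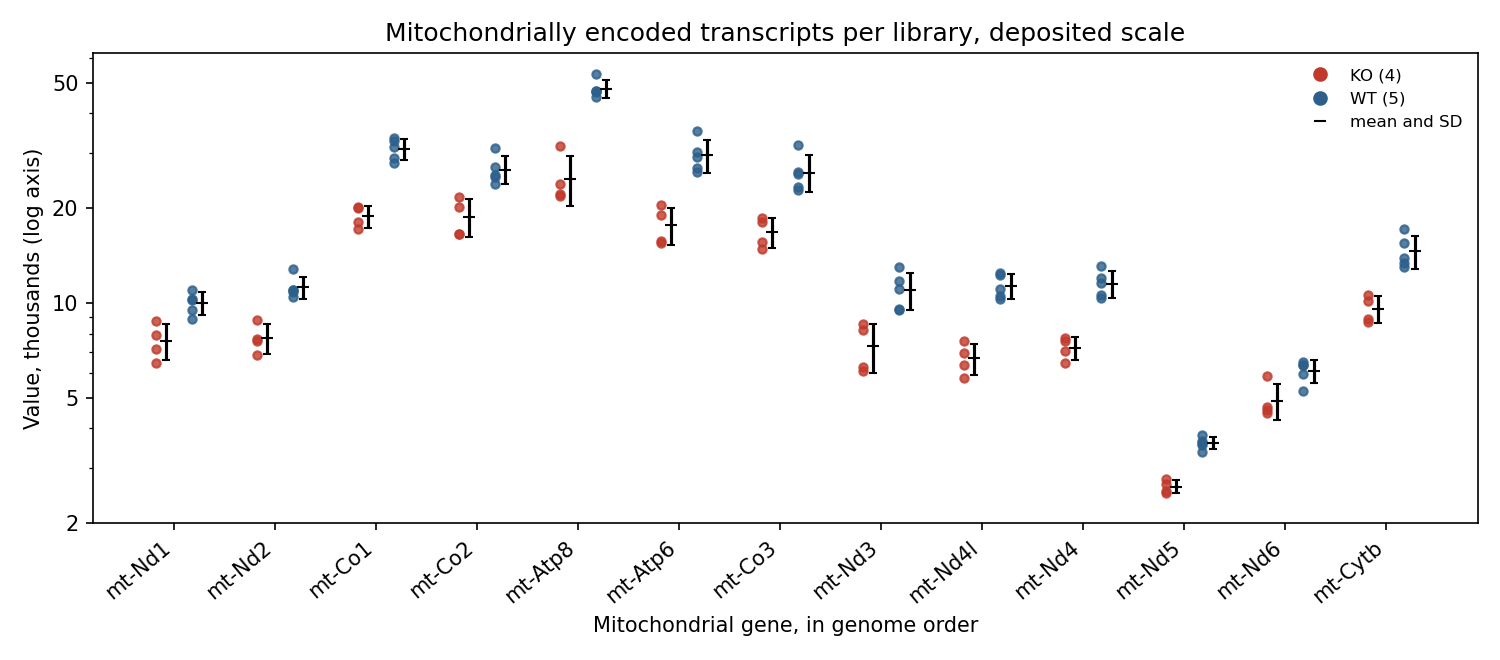
Values of the 13 mitochondrial members in each liver (units of 1000, log axis, deposited scale), in genome order, KO (red) left of WT (blue), with mean and SD in black. Every gene but mt-Nd6 has all 4 KO points below the 5 WT points, and mt-Atp8 shows the widest gap.

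The mitochondrial members were among the most abundant transcripts of the table, and mt-Atp8, a small subunit of the membrane part of the ATP synthase, showed the lowest ratio. It was at 31475, 21862, 23809.8 and 22225 in KO and at 45071, 47161, 53351, 46677 and 46935 in WT. With equal totals the ranges overlapped, while on the deposited scale the groups were far apart, with KO replicate 1, the female, closest to WT. The KO mean was 0.519 times the WT mean, a log2 fold change of -0.96 ± 0.15 (SE, adjusted p = 0.00109), and with equal totals it was -0.56 (adjusted p = 0.0331). Its annotated transcript is 204 bases long, the shortest of the mitochondrial members, and 43 of these bases are shared with mt-Atp6. The values of mt-Atp8 and mt-Atp6 are therefore not fully separate measurements. That of mt-Atp8 rests on 40686 reads per library, against 561484 for mt-Co1. mt-Atp6, the proton channel subunit, was at 20413, 15514, 15784 and 19000.2 in KO and at 26764, 29061, 35132, 30143 and 26057 in WT, with no overlap. Its log2 fold change was -0.74 ± 0.15 on the deposited scale (adjusted p = 0.0040) and -0.34 with equal totals (adjusted p = 0.132).

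The catalytic core of complex IV fell as well. mt-Co1, which holds the oxygen-reducing site, was at 20184, 17176, 18023 and 19977 in KO and at 28924, 33447, 32746, 31352 and 27768 in WT. The highest KO library stood well below the lowest WT library, with a log2 fold change of -0.71 ± 0.12 (adjusted p = 0.00195). mt-Co2, which receives electrons from cytochrome c, averaged 18769.5 ± 2623 in KO and 26519 ± 2723 in WT (adjusted p = 0.0214, but 0.0694 without KO replicate 2 and 0.0593 without KO replicate 3). mt-Co3 averaged 16799 ± 1856 in KO and 25950.5 ± 3484 in WT (adjusted p = 0.0081). mt-Cytb, the haem-bearing subunit of complex III, averaged 9593 ± 937 in KO and 14596 ± 1726 in WT (adjusted p = 0.00576). With equal totals none of these 4 passed the test, with log2 fold changes between -0.31 and -0.10.

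Of the 7 mitochondrial subunits of complex I, which form its proton-pumping membrane arm, 6 fell on the deposited scale. mt-Nd4l had the lowest ratio, at 7571, 6359.6, 6949.8 and 5802 in KO and 11114, 12254, 12499, 10519 and 10265 in WT, a log2 fold change of -0.77 ± 0.12 (adjusted p = 0.0012). The ranges were apart on the deposited scale. mt-Nd4l shares 7 bases with mt-Nd4, so the values of these genes are not fully separate measurements either. mt-Nd5, the least abundant member, was at 2659.8, 2541, 2769 and 2493 in KO and 3374, 3811, 3600.4, 3538 and 3655 in WT, and had the smallest relative spread within each group. Its log2 fold change was -0.46 ± 0.09 (adjusted p = 0.00272). The others that fell were mt-Nd1, mt-Nd2, mt-Nd3 and mt-Nd4, with log2 fold changes between -0.68 and -0.41. The call of mt-Nd1 ended when any of KO replicates 1 to 3 or WT replicates 2 to 4 was left out (adjusted p from 0.0511 to 0.0967), and that of mt-Nd3 without KO replicate 2 (0.0506).

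mt-Nd6 was the exception, in that it missed the adjusted threshold. It is the 1 member read from the opposite strand of the mitochondrial genome, and it was at 4580.1, 4469, 4669 and 5855 in KO and 5255, 5952, 6349, 6339 and 6478 in WT. KO replicate 4 lay within the WT range. The log2 fold change was -0.32 ± 0.12 (adjusted p = 0.0657), and with equal totals it was 0.08 (adjusted p = 0.562). At an unadjusted p under 0.05 (limma, deposited scale) all 13 mitochondrial members were lower, a threshold at which all transcripts were not counted. With a minimum mean of 10 all 13 were called lower, beside 24.5% of the transcripts tested there. Reads of mt-Nd5 and mt-Nd6 cannot be told apart over their shared bases where counting ignores strand, and whether strand was used is not stated in the labels.

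Near-identical copies in the nuclear genome add uncertainty to 7 of the 13 mitochondrial members (identity of at least 97% over at least 100 bases of GENCODE M21 transcripts). Of these copies, Gm29216, which matches mt-Co1 at 99.8% over 483 bases, was listed at 7746 ± 3898 in KO and 10740.3 ± 3379 in WT. Reads of mt-Co1 and Gm29216 may have been split between them. The other copies were listed at mean values of at most 36.2 in KO and 45.3 in WT. Among the 84 nuclear members, 27 had such a copy or an overlapping neighbour, including Cox7c, whose copy Gm12338 was listed at 707 ± 74.0 in KO and 1027 ± 122.3 in WT, and Atp5l, whose copy Gm10221 was listed at 234 ± 29.1 in KO and 434 ± 64.3 in WT.

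**Figure D4:**
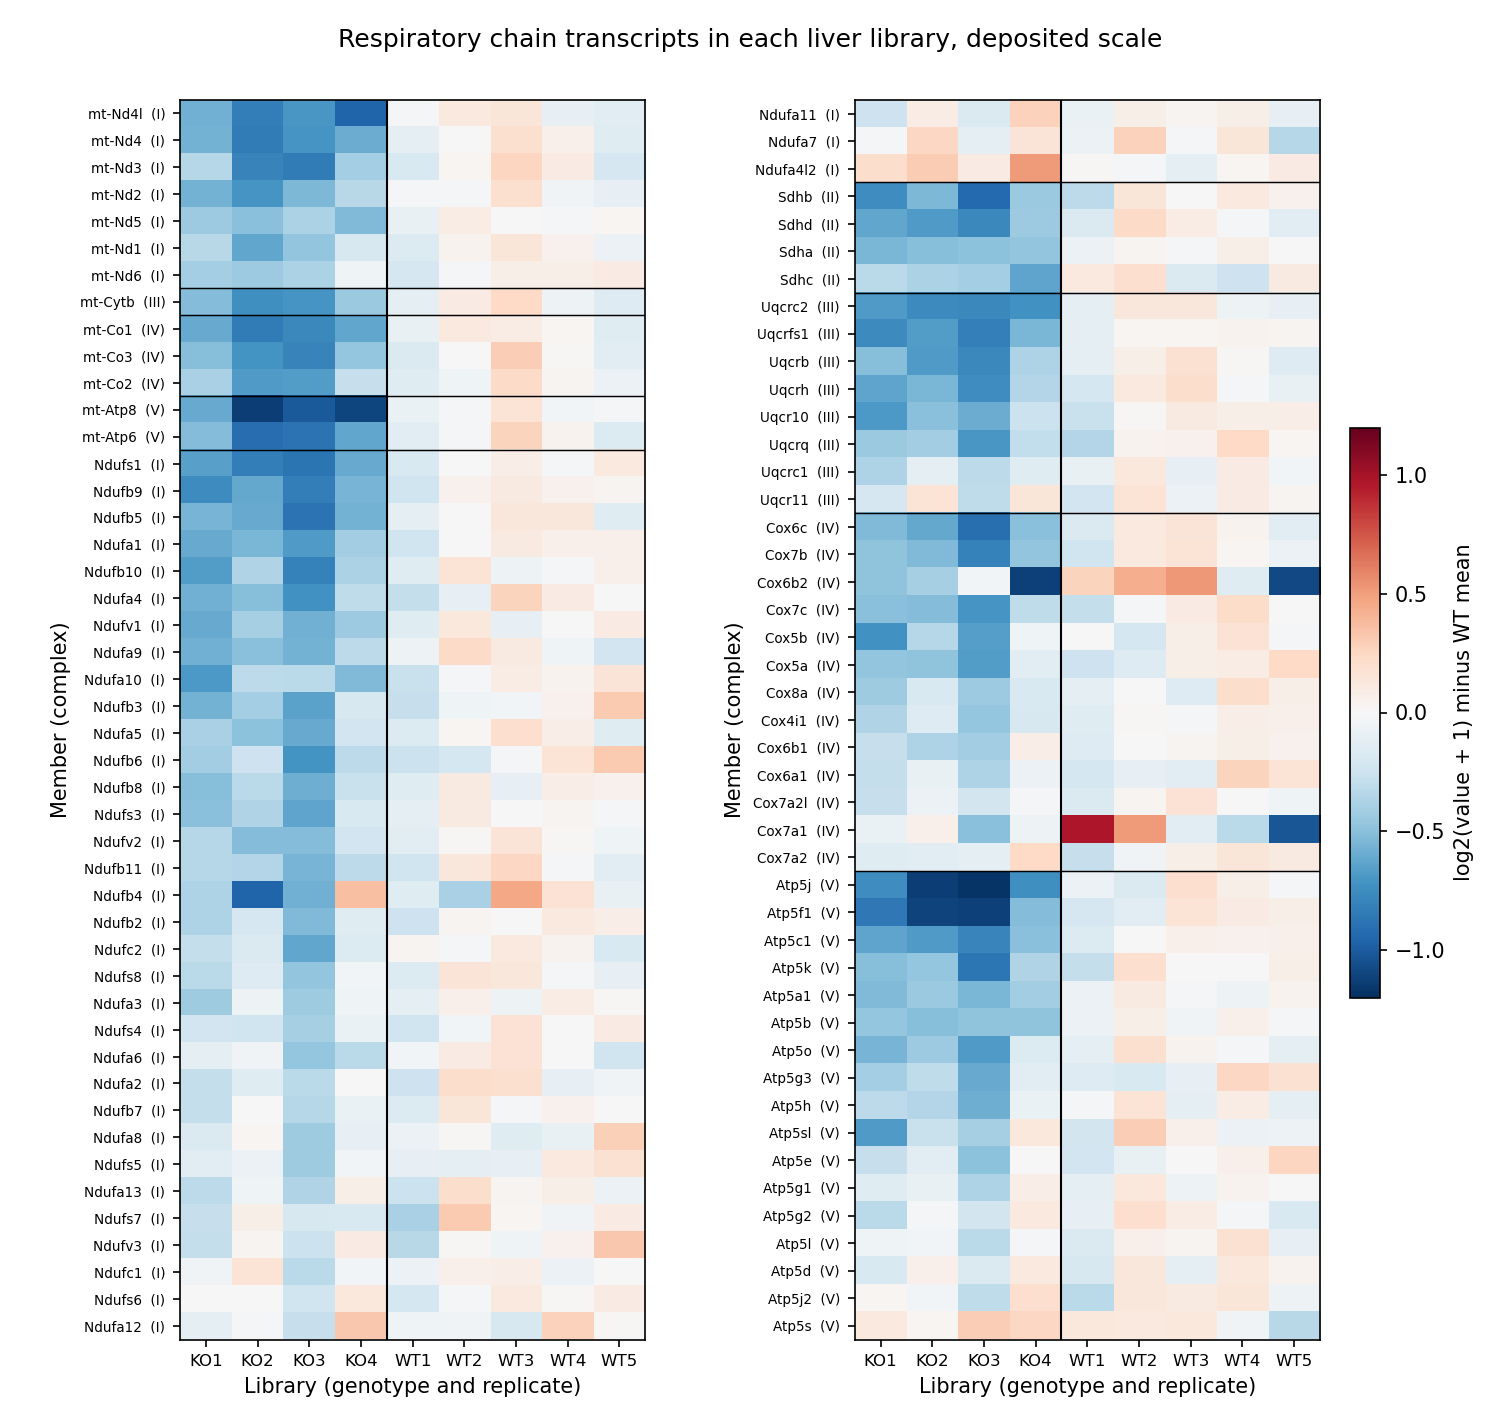
Log2(value + 1) of the tested members in each liver, minus the WT mean of that member, deposited scale, with colours limited to the range -1.2 to 1.2. Rows are ordered by genome, complex and fold change, and the black vertical line divides the 4 KO from the 5 WT libraries; blue fills most KO cells, most deeply in the upper rows of each complex, and fades toward the lower rows.

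Complex II, the succinate dehydrogenase that links the citric acid cycle to the chain, was lower as a whole on the deposited scale: 4 of 4 members fell, with a median log2 fold change of -0.57. Sdha, the flavoprotein that oxidises succinate, was at 141, 144, 146 and 148 in KO and 196, 211, 203, 217 and 205 in WT. Its values hardly varied within a group, and the log2 fold change was -0.51 ± 0.06 (adjusted p = 0.000259). Sdhb, the iron-sulphur subunit, was at 127, 146, 111 and 156 in KO and 171, 235, 211, 230.4 and 220.2 in WT, also with no overlap (log2 fold change -0.66 ± 0.13, adjusted p = 0.00318). The membrane anchors Sdhc and Sdhd had log2 fold changes of -0.44 (adjusted p = 0.0142) and -0.63 (adjusted p = 0.0015). With equal totals none of the 4 passed the test, and the median was -0.17. The 2 promoters printed in full, those of Sdha and Sdhd, hold 3 and 1 NRF1 motif matches.

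Complex III hands electrons from ubiquinol to cytochrome c, and 6 of its 8 nuclear members fell (median -0.54). Uqcrc2, a core subunit on the matrix side, was at 134, 127, 125.8 and 130.0 in KO and 199.6, 238, 236, 207 and 201 in WT. All KO values lay close together below the WT range on the deposited scale, with a log2 fold change of -0.74 ± 0.08 (adjusted p = 0.000125). With equal totals it was -0.34 (adjusted p = 0.0480), and KO replicates 1 and 3 (167.6 and 159.5) lay above WT replicate 5 (155.6). Uqcrfs1, the Rieske iron-sulphur protein, was at 120.4, 128, 115 and 139.8 in KO and 189, 208, 208, 210.5 and 209 in WT. Its groups did not overlap on either scale, with a log2 fold change of -0.70 ± 0.08 (adjusted p = 0.000148), and -0.30 with equal totals (adjusted p = 0.0206). Uqcrb, a subunit at the quinone site, averaged 331 ± 41.9 in KO and 495 ± 47.2 in WT (adjusted p = 0.00269). Uqcrc1, the other core subunit, averaged 89.0 ± 7.90 in KO and 104.8 ± 7.87 in WT, a smaller difference that missed the threshold (log2 fold change -0.23, adjusted p = 0.0582).

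Of the 37 nuclear members of complex I, 17 fell and 20 had no call (median -0.31). Ndufs1, the large iron-sulphur subunit of the NADH-oxidising arm, was at 41.3, 36.4, 35.1 and 42.6 in KO and 57.4, 65.7, 68.9, 64.5 and 71.0 in WT. The groups were apart, with a log2 fold change of -0.74 ± 0.09 (adjusted p = 0.000235), and -0.35 with equal totals (adjusted p = 0.0107). Ndufb9, an accessory subunit of the membrane arm, was at 272, 299, 258 and 312 in KO and 389, 474, 495, 475 and 468 in WT (log2 fold change -0.69 ± 0.10, adjusted p = 0.00058), and was lower with equal totals as well (-0.29, adjusted p = 0.0327). Ndufb5, in the same arm, averaged 85.1 ± 8.76 in KO and 134.4 ± 12.7 in WT (adjusted p = 0.000905). The 7 nuclear core subunits, grouped by textbook structure after the values were known, gave 4 lower, and the 30 accessory ones by name gave 13 lower.

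The complex I members were not uniform. Ndufs6, an accessory subunit that binds zinc, was at 156, 156, 132 and 171 in KO and 134, 155, 169, 158 and 167 in WT, with overlapping ranges and a log2 fold change of -0.03 ± 0.10 (adjusted p = 0.858). With equal totals the same gene was higher (0.37, adjusted p = 0.0070). Ndufa4, the most abundant nuclear member, was at 879.9, 920.0, 790.0 and 1061 in KO and 1077, 1226, 1582, 1408 and 1319 in WT, a log2 fold change of -0.53 ± 0.13 (adjusted p = 0.0111). Ndufa4l2, its relative known from hypoxic cells, was the least abundant member above the minimum (mean 1.69). It was at 1.83, 2.03, 1.62 and 2.48 in KO and 1.48, 1.42, 1.25, 1.48 and 1.62 in WT, nearly without overlap, with a log2 fold change of 0.28 ± 0.11 (adjusted p = 0.0635) and of 0.53 with equal totals (adjusted p = 0.00368). Ndufa4l2 is the 1 nuclear member with an unadjusted p under 0.05 in the higher direction on the deposited scale. With equal totals there were 16 of 79, where 45.0% of all tested transcripts were higher even by adjusted p. The unadjusted share of all transcripts was not counted.

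In complex IV 7 of 13 tested nuclear members fell (median -0.31). Cox6c, a small membrane subunit, was at 518, 487, 398 and 528 in KO and 663, 809, 829, 769 and 679.8 in WT, with no overlap (log2 fold change -0.64 ± 0.11, adjusted p = 0.00211). Cox7b averaged 146 ± 15.8 in KO and 218 ± 23.7 in WT (adjusted p = 0.00298), and Cox7c averaged 324 ± 37.4 in KO and 462 ± 58.6 in WT (adjusted p = 0.00875). Cox4i1, the regulatory subunit that binds ATP, was at 319.5, 369, 298 and 359.5 in KO and 372, 416, 406, 436 and 430.3 in WT. The gap between its highest KO and lowest WT library was narrow, and the log2 fold change was -0.29 ± 0.09 (adjusted p = 0.0293) on the deposited scale and 0.10 with equal totals (adjusted p = 0.408). Leaving out KO replicate 1, KO replicate 3 or any of WT replicates 2 to 5 ended the call, with adjusted p from 0.0505 to 0.0846.

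Several complex IV subunits exist as paired forms, of which the liver uses 1 and heart, skeletal muscle, lung or testis the other. The liver or general forms were high in both groups. Cox6a1 averaged 364 ± 36.9 in KO and 421 ± 61.5 in WT, Cox7a2 273 ± 37.5 in KO and 281 ± 31.5 in WT, Cox8a 306 ± 30.7 in KO and 379 ± 39.1 in WT, and Cox6b1 401 ± 66.4 in KO and 473 ± 28.2 in WT. Of these, Cox8a fell (adjusted p = 0.0418, but 0.107 without KO replicate 1, 0.113 without KO replicate 3, 0.0683 without WT replicate 2, 0.0850 without WT replicate 4 and 0.0705 without WT replicate 5), and the log2 fold change of Cox7a2 was -0.04 (adjusted p = 0.817). With equal totals Cox7a2 was higher (0.36, adjusted p = 0.00826), and Cox8a stood at 0.092 (adjusted p = 0.507).

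The alternative forms stayed low in both genotypes. The lung form Cox4i2 and the muscle forms Cox6a2 and Cox8b had values of at most 2.33 in any KO library and 1.53 in any WT library, and the testis forms Cox7b2 and Cox8c were listed at 0 in all 9 libraries. These are the 5 members below the minimum, of which Cox8b came closest, with a mean of 0.534. The heart and muscle form Cox7a1 was at 3.52, 3.99, 2.37 and 3.57 in KO and 8.33, 5.78, 3.37, 2.82 and 1.35 in WT (adjusted p = 0.779). The testis form Cox6b2 was at 6.01, 6.47, 8.58 and 3.52 in KO and 10.8, 12.3, 13.1, 7.89 and 3.63 in WT (adjusted p = 0.270). In WT livers the 3 females had higher values of both genes than the 2 males. Of the striated muscle markers examined, 0 of 13 passed the minimum.

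In complex V 8 of the 17 nuclear members fell (median -0.33), and the counts by place in the enzyme were as follows. The subunits were assigned to places from textbook structure after their values were known. The peripheral stalk, which holds the catalytic head still while the rotor turns, had 4 of 4 subunits lower on the deposited scale (Atp5f1, Atp5h, Atp5j and Atp5o). The F1 head and central stalk had 3 of 5 lower, the membrane subunits Atp5j2, Atp5k and Atp5l had 1 of 3, and the 3 genes that each encode the same mature rotor subunit c (Atp5g1, Atp5g2 and Atp5g3) had 0. With equal totals the stalk had 2 of 4 lower, the F1 part 1 lower and 1 higher, the membrane subunits 0 lower and 1 higher, and the subunit c genes 0 either way. Of all tested transcripts 14.5% were lower on the deposited scale, and 2.72% were lower and 45.0% higher with equal totals.

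Atp5j, subunit F6 of the stalk, had the lowest ratio of all nuclear members. It was at 173, 133, 129 and 174 in KO and 277, 259, 336, 306 and 287 in WT, and its groups were widely apart. The KO mean was 0.519 times the WT mean (log2 fold change -0.95 ± 0.12, adjusted p = 0.000353), and with equal totals the log2 fold change was -0.55 (adjusted p = 0.00474). Atp5f1, subunit b, was at 131, 110.0, 109 and 166 in KO and 207, 217, 268, 255 and 251 in WT, without overlap (log2 fold change -0.90 ± 0.14, adjusted p = 0.000943; with equal totals -0.51, adjusted p = 0.00365). Atp5c1, the gamma subunit of the rotating shaft, averaged 221 ± 18.6 in KO and 348 ± 22.7 in WT (log2 fold change -0.65, adjusted p = 0.000373).

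Atp5b, the catalytic beta subunit and the most abundant nuclear member of complex V, was at 539.7, 524, 535 and 532 in KO and 710.0, 785, 726, 776 and 735 in WT. The KO livers were almost alike, and the log2 fold change was -0.49 ± 0.07 (adjusted p = 0.000626). With equal totals it was -0.09 (adjusted p = 0.569). The subunit c genes averaged 209 ± 26.7 in KO and 228 ± 14.7 in WT for Atp5g1, 78.9 ± 10.99 in KO and 85.0 ± 9.14 in WT for Atp5g2, and 460.4 ± 62.1 in KO and 594 ± 85.7 in WT for Atp5g3. All 3 ranges overlapped, with adjusted p values of 0.332, 0.483 and 0.0536. In the authors' own test Atp5g3 had a q of 0.0349, with a log2 fold change of -0.41, so its missing call depends on the test. Reads of Atp5g2 may have been split with its copy Gm10175, so its level is uncertain.

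Proteins that help build the complexes or act around them were read from lists drawn up with earlier results of these data known. Of 51 tested assembly factors 20 were lower and 1 higher on the deposited scale (median -0.31), and 4 were lower and 12 higher with equal totals. Beside this and the list counts that follow, 14.5% of all tested transcripts were lower and 21.4% higher on the deposited scale. With equal totals these shares were 2.72% and 45.0%. By target, 9 of 14 factors of complex I, 3 of 4 of complex II, 0 of 6 of complex III, 7 of 23 of complex IV and 1 of 4 of complex V were lower. Ndufaf4, an assembly factor of complex I, was at 6.15, 9.14, 8.08 and 11.2 in KO and 19.2, 18.2, 21.6, 17.8 and 18.9 in WT. Its groups were far apart (log2 fold change -1.09 ± 0.14, adjusted p = 0.000348). Sco2, which delivers copper to complex IV, was at 11.7, 18.7, 14.0 and 19.5 in KO and 34.8, 39.8, 35.2, 31.6 and 29.5 in WT (log2 fold change -1.07 ± 0.15, adjusted p = 0.000597). With equal totals both remained lower, at -0.72 (adjusted p = 0.00179) and -0.69 (adjusted p = 0.00719).

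Of 18 tested electron carriers and subunits outside the naming rule, 10 were lower and 0 higher on the deposited scale, and 1 was lower and 1 higher with equal totals. Etfa, a subunit of the flavoprotein that passes electrons from fatty acid oxidation to the chain, was at 219.7, 192, 181 and 198 in KO and 408, 440.0, 474, 410.0 and 408 in WT. The KO mean was 0.461 times the WT mean (log2 fold change -1.11 ± 0.08, adjusted p = 1.51e-05), and it was lower with equal totals too (-0.71, adjusted p = 0.00124). Cytochrome c (Cycs) averaged 28.0 ± 4.34 in KO and 41.0 ± 6.17 in WT (adjusted p = 0.0127). Cyc1, the cytochrome c1 subunit of complex III, averaged 111 ± 8.52 in KO and 152 ± 11.6 in WT (adjusted p = 0.00282). Ndufab1, the acyl carrier protein within complex I, averaged 94.2 ± 9.78 in KO and 125.7 ± 7.85 in WT (adjusted p = 0.00509).

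Genes of mitochondrial DNA expression and regulators of the chain gave the following counts. Of 24 tested genes for mitochondrial transcription, replication and RNA handling, 13 were lower and 0 higher (with equal totals 1 lower and 1 higher). Lrpprc, which stabilises mitochondrial messenger RNAs, was at 26.5, 25.9, 26.5 and 27.4 in KO and 38.2, 34.0, 38.1, 40.5 and 41.3 in WT, with no overlap (log2 fold change -0.51 ± 0.07, adjusted p = 0.000553; with equal totals -0.13, adjusted p = 0.305). Fastkd1, a mitochondrial RNA-binding protein, averaged 4.21 ± 0.414 in KO and 8.69 ± 1.12 in WT (adjusted p = 0.00018). Tfam, the packaging and transcription factor of mitochondrial DNA, was at 9.64, 14.8, 17.8 and 21.5 in KO and 29.2, 25.8, 33.8, 13.4 and 12.6 in WT, where the WT females and males lay on either side of most KO livers (adjusted p = 0.320).

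Of 9 tested regulators 3 were lower and 0 higher on the deposited scale, and 0 either way with equal totals. Gabpa averaged 10.6 ± 0.665 in KO and 16.2 ± 1.11 in WT (log2 fold change -0.57 ± 0.07, adjusted p = 0.000362; with equal totals -0.20, adjusted p = 0.146). The coactivator Ppargc1a averaged 2.07 ± 0.464 in KO and 2.23 ± 0.484 in WT (adjusted p = 0.745). Nrf1 was below the minimum, at 1.16 ± 0.706 in KO and 0.808 ± 0.188 in WT. Of 16 tested members whose promoters hold the GABPA motif, 9 were lower (median log2 fold change -0.32), and of 48 without it, 23 (median -0.38). Of 27 tested genes of mitochondrial import and membranes, 14 were lower and 1 higher (with equal totals 2 lower and 6 higher).

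**Figure D5:**
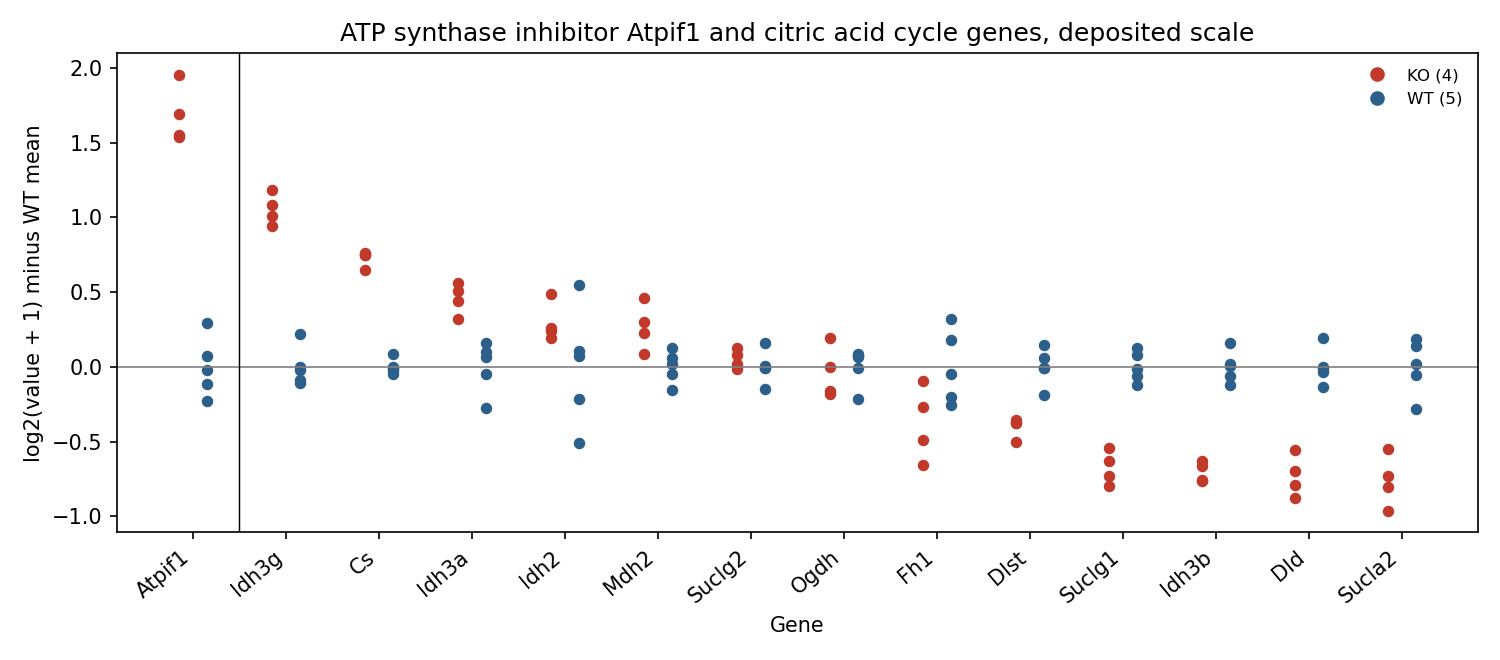
Log2(value + 1) minus the WT mean for Atpif1 (left of the line) and genes of the citric acid cycle list, sorted by fold change, in each KO (red) and WT (blue) liver on the deposited scale. Atpif1, Idh3g and Cs lie high in all 4 KO livers, and the genes at the right end lie low in all 4.

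The citric acid cycle, which feeds the chain with NADH and succinate, was split. Of its 14 tested genes 5 were lower and 5 higher on the deposited scale (median 0.01), beside 14.5% and 21.4% of all tested transcripts. With equal totals 1 was lower and 7 higher, beside 2.72% and 45.0% of all tested transcripts. Cs, citrate synthase, was at 71.2, 70.8, 65.9 and 70.8 in KO and 44.3, 41.1, 41.7, 40.2 and 41.2 in WT. Its ranges were narrow and far apart (log2 fold change 0.73 ± 0.06, adjusted p = 2.77e-05). Isocitrate dehydrogenase 3 is built from alpha, beta and gamma subunits, and their genes went different ways. Idh3g, the gamma subunit, was at 83.1, 91.7, 87.0 and 98.5 in KO and 39.6, 50.1, 42.7, 42.1 and 40.1 in WT, 2.10 times the WT mean (adjusted p = 2.54e-05). Idh3a, the catalytic alpha subunit, averaged 34.0 ± 2.46 in KO and 24.5 ± 2.89 in WT (adjusted p = 0.00598). Idh3b, the beta subunit, averaged 67.6 ± 3.14 in KO and 110.7 ± 8.18 in WT on the deposited scale (log2 fold change -0.70, adjusted p = 0.000115), and with equal totals its log2 fold change was -0.31 (adjusted p = 0.0678).

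Atpif1, the inhibitor protein that stops the ATP synthase from running backwards, was the 1 assembly-list gene that rose on the deposited scale. It was at 151, 169, 153 and 202 in KO and 50.7, 63.3, 54.1, 47.5 and 43.9 in WT. The lowest KO liver stood above any WT liver, and the KO mean was 3.25 times the WT mean (log2 fold change 1.68 ± 0.12, adjusted p = 1.39e-05; with equal totals 2.08, adjusted p = 5.56e-06). It rose while the nuclear members placed in complex V by symbol gave 8 lower and 0 higher on the same scale. With equal totals those members gave 3 lower and 3 higher, Atp5s being 1 of the higher ones.

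A microRNA acts mostly through matches of its seed, bases 2 to 8, to the 3' UTR of a transcript. The letters that pair with the miR-122 seed are ACACTCC, and the shorter core CACTCC. Among the 71 nuclear members with an annotated 3' UTR of at least 50 bases (GENCODE M21, GRCm38), 0 held the 7 letters and 4 the 6 letters (5.63%), namely Atp5j2, Atp5sl, Cox4i1 and Uqcrc1. Among 9832 tested transcripts the shares were 7.57% and 25.2%. The members' 3' UTRs were short, with a median of 146 bases against 897, and the comparison was not matched on length. Of the genes on the assembly, carrier, expression, regulator, cycle and import lists, 5 of the 7 called higher held the 6 letters, against 5 of 61 called lower and 7 of 65 with no call, at median 3' UTR lengths of 327, 393 and 413 bases. The 7 letters stood in 2 of the 7 called higher, 1 of the 61 called lower (Sdhaf1) and 2 of the 65 with no call (Coa4 and Pet100). The list directions were known when these matches were counted, so the counts are a description. All 4 windows printed below were picked from genes called higher. The windows of 4 of these genes are shown with the matched letters in capitals, for Cs at chr10:128362295-128362301 (plus strand), Idh3a at chr9:54604158-54604164 (plus strand), Idh3g at chrX:73779012-73779017 (minus strand) and Atpif1 at chr4:132530640-132530645 (minus strand).
Cs: agggttgagatACACTCCtgtcctgcccct
Idh3a: cccacgtggccACACTCCagccagtgctgc
Idh3g: tctcactttagCACTCCagctagcttgggg
Atpif1: gtggcccgtatCACTCCccacgtctgtaga
Cs and Idh3a hold the 7 letters, and Idh3g and Atpif1 the 6 letters. A match is a run of letters and shows no binding.

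The sexes were not balanced between the genotypes. Within WT, the difference of males minus females had a median of 0.066 on the log2 scale over the nuclear members and -0.081 over the mitochondrial ones. In males alone (3 KO and 2 WT), the median log2 fold changes on the deposited scale were -0.39 for the nuclear and -0.60 for the mitochondrial members. There 23 nuclear and 3 mitochondrial members were lower, beside 843 of 11020 tested transcripts. With sex as a covariate 44 nuclear and 11 mitochondrial members were lower, beside 1516 of 10950 tested transcripts. With equal totals the mitochondrial median was -0.096 in males alone and -0.087 with sex as a covariate, against -0.20 over all livers, and the nuclear median was 0.11 and 0.072, against 0.0074. The part of sex in the differences with equal totals was not tested further. A test of whether the genotype difference itself differed by sex called 0 members (limma; 1 nuclear and 0 mitochondrial members at an unadjusted p under 0.05) and 0.119% of all tested transcripts. It rests on 1 KO female, assumed to vary like the other livers, so a count of 0 says little.

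Markers of other cell types moved with genotype beside these results, with sums and counts given on the deposited scale. Of all tested transcripts 14.5% were lower and 21.4% higher on that scale, and 2.72% and 45.0% with equal totals. Of 5 tested cholangiocyte markers 4 were higher, and their sum was 561 to 935 in KO livers, against 37.1 to 62.4 in WT livers. All 8 macrophage markers were higher, with sums of 419 to 492 in KO livers, against 228 to 299 in WT livers. Of 9 stellate and fibroblast markers 7 were higher, with sums of 262 to 312 in KO livers, against 135 to 235 in WT livers, and all 9 were higher with equal totals. Of 5 erythroid markers 3 were higher, with sums of 1614 to 3024 in KO livers, against 1140 to 1856 in WT livers, and 4 were higher with equal totals. Of 12 hepatocyte markers 3 were lower (Apoa1, Apoa2 and Fgb) and 1 higher (Trf) on the deposited scale, 0 were lower and 3 higher with equal totals (Apob, Cyp3a11 and Trf), and their sums overlapped, at 71331 to 91138 in KO livers, against 68271 to 141337 in WT livers. Endothelial markers had 1 lower and 1 higher of 7, the lymphocyte and adipocyte lists had 1 tested gene each with no call, and striated muscle markers summed to at most 2.81 in KO and 14.6 in WT. The part of these cell types in the respiratory chain values was not tested.

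The single livers differed in how far they stood from WT. Over the nuclear members, the median deviation from the WT mean on the log2 scale was -0.39, -0.32, -0.52 and -0.18 in KO replicates 1 to 4, and -0.17, 0.06, 0.04, 0.05 and 0.01 in WT replicates 1 to 5. KO replicate 3 was the lowest and KO replicate 4 the highest of the knockouts, close to WT replicate 1. Over the mitochondrial members the same medians were -0.52, -0.74, -0.71 and -0.47 in KO, and -0.12, 0.01, 0.19, 0.03 and -0.14 in WT. All 13 mitochondrial members lay under their WT mean in each of the 4 KO livers. Across the 79 tested nuclear members, the log2 fold change had a Spearman correlation of -0.18 with transcript length and -0.29 with mean level, over genes that share libraries and are not independent.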

How the data were processed

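Liver polyA RNA of 4 KO and 5 WT mice was sequenced. The submitters' processing notes list kallisto, sleuth and mm10, without versions; the transcript set and filters were not stated. The deposited table holds, for 1 transcript of each of 30519 genes, a normalised signal in each library (not TPM, since totals differ), a p-value and q-value of the authors' test, and, per the file headers and values, a coefficient, its standard error and a mean observation on a natural log scale. The column of WT replicate 3 is named male and its label says female. The label was kept, since Ddx3y, Uty and Eif2s3y lay at most at 0.114 there.

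Transcripts with a mean of at least 1 entered a two-sided limma test (version 3.58.1, R 4.3.3) of log2(value + 1) on genotype, with a prior variance trend and Benjamini-Hochberg adjustment over 10950 transcripts (threshold 0.05). This scale understates changes of low genes; ratios are of means, and values are mean ± SD. Each library is 1 animal. For equal totals every library was scaled to the mean total, with the same minimum on deposited values. The fit was checked on simulated data with known changes. No 2 libraries were identical. The most alike pair had a Pearson r of 0.981.

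The members and gene lists were chosen with earlier results of these data known. Named were all mitochondrial members, up to 3 nuclear members per complex and side by adjusted p, the most and least abundant of each complex, the isoform pairs, up to 2 genes per side of each other list, genes at the minimum, and Cyc1, Cycs, Ndufab1, Tfam, Nrf1, Gabpa, Ppargc1a and Lrpprc. Other genes named were chosen after their values were seen. Copies were searched with BLAST 2.17.0 in GENCODE M21. Ndufa11 has a value per read out of line with its annotated length, so its level is uncertain. Mitochondrial ribosomal RNAs, miR-122 and 18 promoters were not analysed here. Alternatives tried were other pseudocounts and minimums, no trend, sex as a covariate, males alone, a replicate block, a trimmed mean of log ratios, totals without mitochondrial transcripts, the authors' q-values and each library left out. Single-gene results of a few genes are not reported here, and those genes are left out of the plots that name each gene.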

Additional observations from a re-analysis of the deposited data

Results flagged for a closer look

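In 110 groups of livers (each gene or sum within a genotype), the highest or lowest library was set against the others by Dixon's gap, and 10 stood apart. Chance flags about 1 in 20 such groups. Among KO libraries, replicate 4 stood high for Cox7a2 (329.6, next 257) and mt-Nd6 (5855, next 4669), replicate 2 stood high for Cox8b (2.33, next 0.531), and replicate 3 stood low for Ndufb5 (72.1, next 87.6). Among WT libraries, replicate 1 stood low for Ndufb9 (389, next 468), Uqcrfs1 (189, next 208) and the nuclear sum (16.4 in units of 1000, next 18.8). WT replicate 1 was also the 1 WT library with any value for Cox8b (1.53, the others listed at 0). WT replicate 3 stood high for mt-Atp8 (53351, next 47161) and mt-Nd2 (12802, next 10987).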

How the results depend on the processing

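The direction of the medians held on the deposited scale under every alternative that kept that scale. Counts of calls moved with the scaling of libraries, and also with the samples, the minimum and the test used. With equal totals, transcripts called lower went to 298 and higher to 4926 (1589 and 2345 on the deposited scale), nuclear members to 7 lower and 12 higher (42 and 0), mitochondrial members to 1 lower (12), and the medians to 0.0074 and -0.20 (-0.39 and -0.60). With equal totals over transcripts that are not mitochondrial, 306 transcripts were lower and 3679 higher. Nuclear members were then 6 lower and 1 higher, mitochondrial members 1 lower, and the medians -0.070 and -0.28. A trimmed mean of log ratios, unweighted because the values are not counts, gave 2302 transcripts lower and 1855 higher. With it 50 nuclear and 13 mitochondrial members were lower, and the medians were -0.49 and -0.71. Cox4i1 and Cox8a changed sign with equal totals (0.10 and 0.092) and without mitochondrial transcripts (0.026 and 0.015), as did Cox7a2 with equal totals (0.36). Over all tested members, 37 nuclear and 1 mitochondrial log2 fold changes were negative on the deposited scale and positive with equal totals. The cause of these shifts beyond the scaling itself was not tested.

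On the deposited scale, males alone, with fewer libraries, gave 843 lower and 1493 higher transcripts, and 23 nuclear and 3 mitochondrial members lower. A minimum mean of 10 left 4520 tested transcripts, of which 752 were higher. No minimum gave 1426 of 21285 tested transcripts and 3 mitochondrial members lower, and the authors' q gave 3 mitochondrial members. No trend gave 1 nuclear member higher. The causes were not tested. Leaving out 1 library gave 32 to 46 nuclear members lower, 0 to 1 higher (the 1 without KO replicate 3) and 9 to 13 mitochondrial members lower. Over all tested transcripts these omissions gave 1238 to 1616 lower and 1876 to 2438 higher. With equal totals, a minimum of 10 gave 194 lower and 1914 higher among 4520 tested transcripts. Males alone gave 194 transcripts, 2 nuclear and 0 mitochondrial members lower, and no minimum gave 0 mitochondrial members lower. There, leaving out 1 library gave 3 to 12 nuclear members lower, 4 to 18 higher, and 0 to 5 mitochondrial members lower. Lower nuclear counts came without KO replicates 2 (4), 3 (3) and 4 (4) and WT replicates 2, 3 and 4 (4 each), and the highest without WT replicate 5 (12); the mitochondrial count was 5 without WT replicate 5. Higher nuclear counts fell to 4 to 7 without KO replicates 1 to 4 and to 5 and 6 without WT replicates 3 and 4.

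Same-numbered libraries share only a number: their deviations from the group means correlated at 0.229, 0.0823, -0.184 and 0.113 for numbers 1 to 4, and 1 of the 4 KO libraries correlated best with its own number. A replicate block over numbers 1 to 4 gave 1418 of 11005 transcripts, 38 nuclear and 8 mitochondrial members lower on the deposited scale. With equal totals it gave 459 transcripts, 12 nuclear and 4 mitochondrial members lower. The block also drops WT replicate 5, which has no partner. That omission alone gave 1616 transcripts, 38 nuclear and 12 mitochondrial members on the deposited scale. With equal totals it gave 422 transcripts, 12 nuclear and 5 mitochondrial members. Cox7a1 rests on the fewest reads (13.5 per library).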
